A study of Mus musculus with 6 samples.

Results

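The adult haemoglobin genes of the mouse, Hba-a1, Hba-a2, Hbb-bs and Hbb-bt, were followed as a set of 4 listed genes among the 32285 genes of the deposited matrices, across 6 coronal brain sections. The sections came from male C57BL/6J mice aged 6 months (young), 18 months (middle) and 21 months (old), with 2 animals per age, 1 section each, and no treatment or engineered allele in any group. Frozen brains were cut at 16 µm and measured with Visium, a slide on which barcoded spots capture the polyadenylated RNA of the tissue above them, and each captured molecule carries a unique molecular identifier (UMI). Both young sections, middle 1 and old 1 lay on slide 1, and middle 2 and old 2 on slide 2. Whether the animals were perfused before the brains were frozen is not given in the sources used here.

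Haemoglobin carries oxygen in red blood cells and is built from alpha and beta chains around haem. Red cells lose their nucleus as they mature, and young circulating red cells still hold globin RNA, so in brain tissue these transcripts are best known as a sign of blood in vessels. Low levels of the same transcripts have also been described in some neurons and glia. A lower level in a section can mean fewer red cells or less globin RNA per cell, which cannot be told apart here.

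The alpha chain is encoded by Hba-a1 (ENSMUSG00000069919, chr11:32283511-32284465, plus strand) and Hba-a2 (ENSMUSG00000069917, chr11:32296489-32297298, plus strand). The beta chain is encoded by Hbb-bs (ENSMUSG00000052305, chr7:103826534-103828096, minus strand) and Hbb-bt (ENSMUSG00000073940, chr7:103812524-103813996, minus strand). Positions are those of GENCODE M21 on GRCm38, and the main transcript of each gene has 3 exons. Within each pair the coding sequences are near copies, which bears on every value given for a single member. They differ at 1 of 426 coding bases between the alpha genes (C381T, Hba-a1 to Hba-a2, counted from the first base of the start codon) and at 1 of 441 between the beta genes (C417T, Hbb-bs to Hbb-bt). The stretches around these positions are shown because they are the only coding bases by which reads of a pair can be assigned, with the differing base in capitals.
Hba-a1: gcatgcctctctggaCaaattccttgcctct
Hba-a2: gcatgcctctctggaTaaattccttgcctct
Hbb-bs: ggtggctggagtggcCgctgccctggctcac
Hbb-bt: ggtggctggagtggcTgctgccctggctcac
In the last 300 bases of Hba-a1, from which a 3′ method draws its reads, 80.1% of windows of 50 bases were also present in Hba-a2. The same share for Hbb-bs in Hbb-bt was 36.7%. The split of UMIs between Hba-a1 and Hba-a2 is therefore less certain than that between the beta genes. If reads that match both copies were not counted, the summed level and the ratio of alpha to beta genes are affected as well, which was not tested.

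The levels of the 4 genes were correlated across spots, so the sequence before their starts is shown for 1 alpha and 1 beta gene. The 110 bases before the RefSeq start of Hba-a2 (chr11:32296382-32296491, plus strand, GRCm38.p6) and of Hbb-bs (chr7:103827929-103828038, minus strand) are given from RefSeq, 5′ to 3′ on the gene's strand. Capitals mark the TATAA motif, the CCAAT box and the CACCC box.
Hba-a2: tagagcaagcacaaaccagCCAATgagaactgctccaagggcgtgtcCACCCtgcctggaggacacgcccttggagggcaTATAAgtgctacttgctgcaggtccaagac
Hbb-bs: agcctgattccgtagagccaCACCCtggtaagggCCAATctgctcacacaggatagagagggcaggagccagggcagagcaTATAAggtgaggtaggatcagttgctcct
TATAA began 30 bases before the start of Hba-a2 and 29 before that of Hbb-bs. In Hba-a2 CCAAT lay farther from the start than CACCC, at 91 and 63 bases, and in Hbb-bs the order was the opposite, at 76 and 90 bases. All 4 haemoglobin windows held all 3 motifs, searched on both strands, as did 182 of 32851 RefSeq windows of this length (0.554%). Singly, TATAA was in 10.9% of those windows, CCAAT in 20.2% and CACCC in 29.6%. The Hba-a1 window was 94.7% identical to that of Hba-a2, and the Hbb-bt window 74.1% identical to that of Hbb-bs.

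The analysis held 16741 spots with 60938938 to 77557934 UMIs per section. The median spot had 20370 to 30093 UMIs, and both old sections had the lowest medians. Of 3389 spot barcodes, 1920 were present in all 6 sections, as spots at the same slide position share a barcode. Mitochondrially encoded genes took 13.3% to 16.5% of UMIs. The tissue label was borne out by brain transcripts in every section, with Snap25, a synaptic gene, at 2499 to 2761 UMIs per 1000000 UMIs (CPM).

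The 4 genes gave 17823 UMIs in all. As a share of all UMIs they reached 60.8 CPM in young 1, 40.9 in young 2, 28.4 in middle 1, 10.9 in middle 2, 63.2 in old 1 and 43.1 in old 2. Both middle sections lay below all young and old sections, while young and old overlapped. The young mean was 50.8 ± 14.1 CPM (SD, n = 2). For middle it was 19.7 ± 12.4 (SD, n = 2), and for old 53.2 ± 14.2 (SD, n = 2). On slide 1 the middle section had the lowest level of the 4, and on slide 2 middle 2 was below old 2. An exact permutation test over the 3 age groups gave p = 0.133 (Benjamini-Hochberg adjusted over 10 blood measures, 0.267). The smallest p that 2 sections per age allow is 0.0667.

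Hbb-bs, the beta gene with the most UMIs, was measured at 32.4 and 19.7 CPM in young, 12.1 and 4.68 in middle and 29.8 and 20.2 in old animals. Hbb-bt, the other beta gene, had 5.03 and 3.83 CPM in young, 2.92 and 0.771 in middle and 5.04 and 3.45 in old. Middle lay below both other ages for each beta gene, without overlap. Hba-a1 had 12.4 and 7.32 CPM in young, 5.90 and 2.27 in middle and 13.2 and 9.19 in old. Hba-a2 had 11.0 and 10.0 CPM in young, 7.46 and 3.20 in middle and 15.1 and 10.2 in old. The alpha genes had the same pattern, and middle 2 was the lowest section for every member. The share of all genes with this order of ages was not counted. Levels of the 4 genes were correlated across spots, so they are not 4 separate observations. One UMI stands for 1 captured transcript, so levels of the 4 genes were compared without dividing by length. Hbb-bs gave 42.7% to 53.3% of haemoglobin UMIs and Hbb-bt 7.06% to 10.3%.

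**Figure D1:**
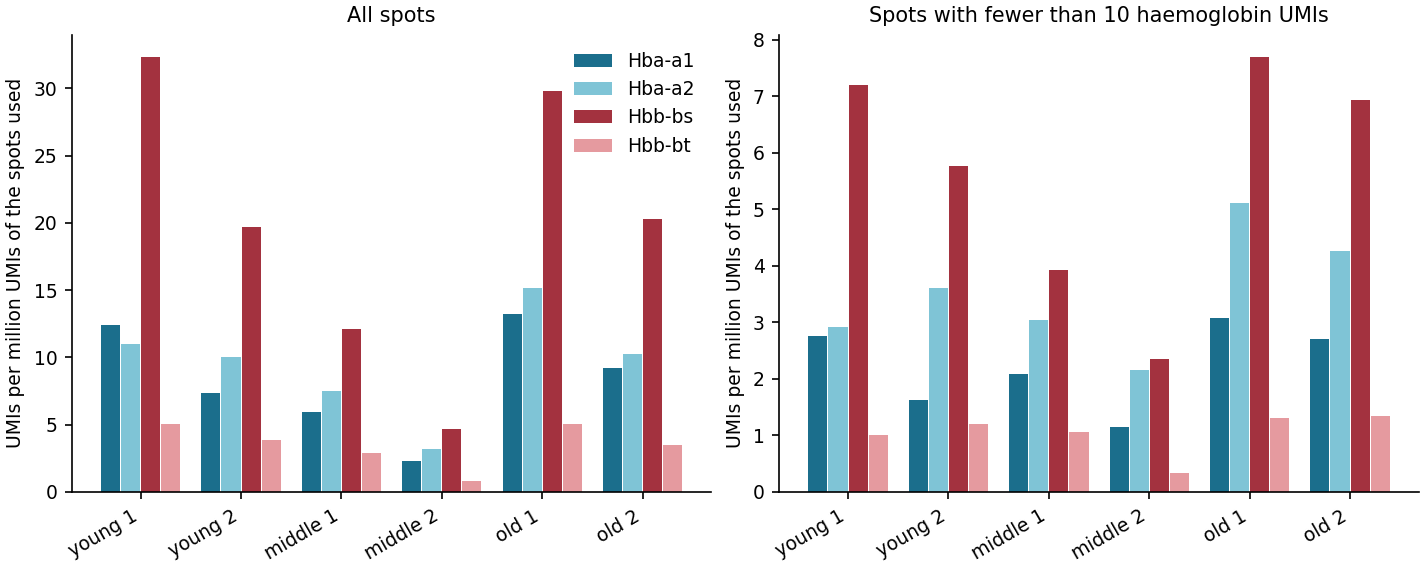
CPM of each haemoglobin gene in each of the 6 sections, in all spots (left) and in spots with fewer than 10 haemoglobin UMIs (right), 1 bar per gene and section. In both panels middle 2 is the lowest section for every gene, and Hbb-bs is the highest gene in every section.

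The edgeR quasi-likelihood fit over all genes called none of the 4 members at any contrast of ages. Between middle and young the log2 fold changes were -1.29 (SE 0.59) for Hba-a1, -0.99 (SE 0.46) for Hba-a2, -1.65 (SE 0.62) for Hbb-bs and -1.28 (SE 0.64) for Hbb-bt, with adjusted p from 0.654 to 0.700. Between old and middle they ran from 1.16 for Hbb-bt to 1.54 for Hbb-bs, with unadjusted p from 0.0533 to 0.140 and adjusted p of 1.00. Between old and young they lay between -0.11 and 0.22. These counts stand against a background of 12 of 17673 genes called between middle and young (0.0679%), 29 between old and young (0.164%) and 0 between old and middle (0%). At an unadjusted p under 0.05 the last contrast had 361 genes with edgeR and 180 with DESeq2, which also called 0. Without middle 2, edgeR still called none of the 4 members.

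Markers of vessels and blood were read in the same sections. The endothelial transcript Cldn5 was at 46.9 and 44.5 CPM in young, 62.7 and 60.5 in middle and 57.6 and 54.4 in old, so it was not lowest in middle. None of 15 endothelial genes was called between middle and young, and their median log2 fold change was 0.11. Of 6 venous and activated endothelial genes, 1 was called lower in this contrast, with a median of -0.47, against 0.0679% of all genes called. Between old and young 1 of these 6 was also called lower, with a median of -0.053, against 0.164%. None of 6 arterial genes was called between middle and young (median -0.064), nor any of 8 smooth muscle (0.29) or 8 pericyte genes (0.11). S100a8, a neutrophil transcript, gave 168 and 110 UMIs in young, 68 and 81 in middle and 169 and 100 in old. S100a9 gave 164 and 104, 76 and 90, and 190 and 91. Csf3r, the neutrophil gene with the most UMIs, gave 183 and 198, 236 and 261, and 254 and 237. Mmp9 gave 98 and 94, 113 and 94, and 113 and 82, so neither of these was lowest in middle. These are UMIs not divided by the section totals. The neutrophil list had 0 of 9 tested genes called and a median log2 fold change of -0.64 between middle and young and 1.17 between old and middle. The same medians over all genes were -0.0048 and 0.00045. The part of blood cell content in the age values was not tested.

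Most spots had no haemoglobin UMI at all, and a few held most of the signal. Of 16741 spots, 13618 (81.3%) had 0, 1876 had exactly 1, and 33 spots with 100 or more UMIs held 39.7% of the total. The share of spots with a haemoglobin UMI was 21.6% in young 1, 20.0% in young 2, 15.9% in middle 1, 10.1% in middle 2, 24.6% in old 1 and 19.5% in old 2. The exact (Clopper-Pearson) 95% interval was 9.05% to 11.3% in middle 2 and 23.0% to 26.1% in old 1, and such intervals cover counting error only. With each spot thinned to 5000 UMIs, which left out 15 to 46 shallower spots per section, the shares became 7.36%, 6.13%, 6.01%, 3.63%, 9.47% and 7.65%. Middle remained lowest, and old was above young. The exact permutation test gave p = 0.2 before and 0.0667 after thinning (adjusted 0.286 and 0.167), the latter being the smallest possible.

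Spots with at least 10 haemoglobin UMIs are called haemoglobin-rich below. There were 56 and 36 in young, 35 and 13 in middle and 59 and 37 in old, 236 in all (1.41% of spots). They held 77.8% and 70.6% of haemoglobin UMIs in young, 64.8% and 45.4% in middle and 73.3% and 65.0% in old. Inside them haemoglobin took 1514 to 2487 CPM, and the highest value was in old 1. The highest single spots had 588 of 17040 UMIs in old 1 and 521 of 8271 in old 2 (6.30% of that spot), the latter in the meninges. In middle 2 the highest spot had 72 UMIs. The median haemoglobin-rich spot had 39414 and 27743.5 UMIs of all genes in young, 22395 and 12469 in middle and 17954 and 17384 in old, so a threshold in UMIs asked for a higher share in the shallower spots. Of 226 slide positions that were haemoglobin-rich in any section, 10 were so in more than 1 section. The number expected from random placement was not worked out.

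**Figure D2:**
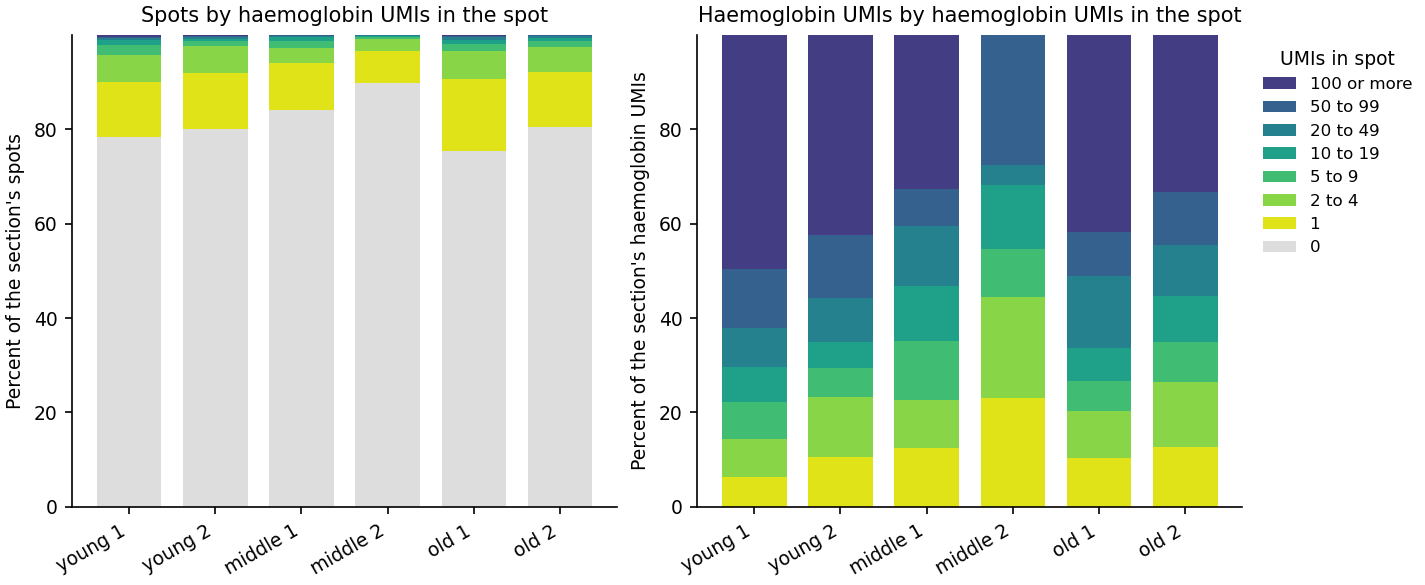
Stacked bars of the percent of spots (left) and of the percent of haemoglobin UMIs (right) of each section, by the number of haemoglobin UMIs in the spot. Grey spots with 0 UMIs make up 75% to 90% of spots, while spots with 100 or more UMIs give the largest part of haemoglobin UMIs in all sections except middle 2, which has none.

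Outside the haemoglobin-rich spots a lower level remained in every section, and it was not evenly spread. The variance of haemoglobin UMIs over these spots was 2.52 to 3.39 times the mean. Their summed level was 13.9 and 12.2 CPM in young, 10.1 and 5.99 in middle and 17.2 and 15.3 in old. The 3 ages did not overlap on this measure. The exact permutation p was 0.0667, the smallest possible (adjusted 0.167). Both old sections had the lowest median depth, so with a cut in UMIs spots of a higher haemoglobin share could stay below it there. The part of depth in this order of ages was not tested. In the edgeR fit of these spots none of the 4 members was called, against 6 of 17626 genes between middle and young (0.034%), 26 between old and young (0.148%) and 0 between old and middle (0%; 357 at an unadjusted p under 0.05). Hbb-bs had log2 fold changes of -1.06 (SE 0.26, adjusted p 0.464) between middle and young and 1.19 (SE 0.26, adjusted p 1.00) between old and middle. DESeq2 called Hbb-bs in both contrasts, with adjusted p of 0.0088 (71 of 23955 genes called, 0.296%) and 0.0475, where it was the only gene called (0.00417%).

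The composition of the haemoglobin transcripts differed between the haemoglobin-rich and the other spots. The ratio of Hba-a2 to Hba-a1 in haemoglobin-rich spots was 0.837 and 1.13 in young, 1.16 and 0.929 in middle and 0.989 and 0.924 in old. In the other spots it was 1.06 and 2.23, 1.46 and 1.88, and 1.66 and 1.58. It was lower in haemoglobin-rich spots in 6 of 6 sections, by -0.70 ± 0.30 on the log2 scale (SD, n = 6, exact sign-flip permutation p = 0.0312, adjusted over 3 ratios 0.0469). The ratio of alpha to beta genes was also lower there in 6 of 6 sections, by -0.24 ± 0.23 (SD, n = 6, exact sign-flip permutation p = 0.0312, adjusted 0.0469). It ran from 0.608 to 0.821 in haemoglobin-rich spots and from 0.689 to 1.23 in the others. The ratio of Hbb-bt to Hbb-bs showed no such shift, at -0.02 ± 0.27 (SD, n = 6, exact permutation p = 0.906) with 2 of 6 sections higher. Both smaller p-values are the smallest that 6 sections allow. How reads that match both copies were treated is not given in the sources used here, and all 3 ratios depend on it.

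**Figure D3:**
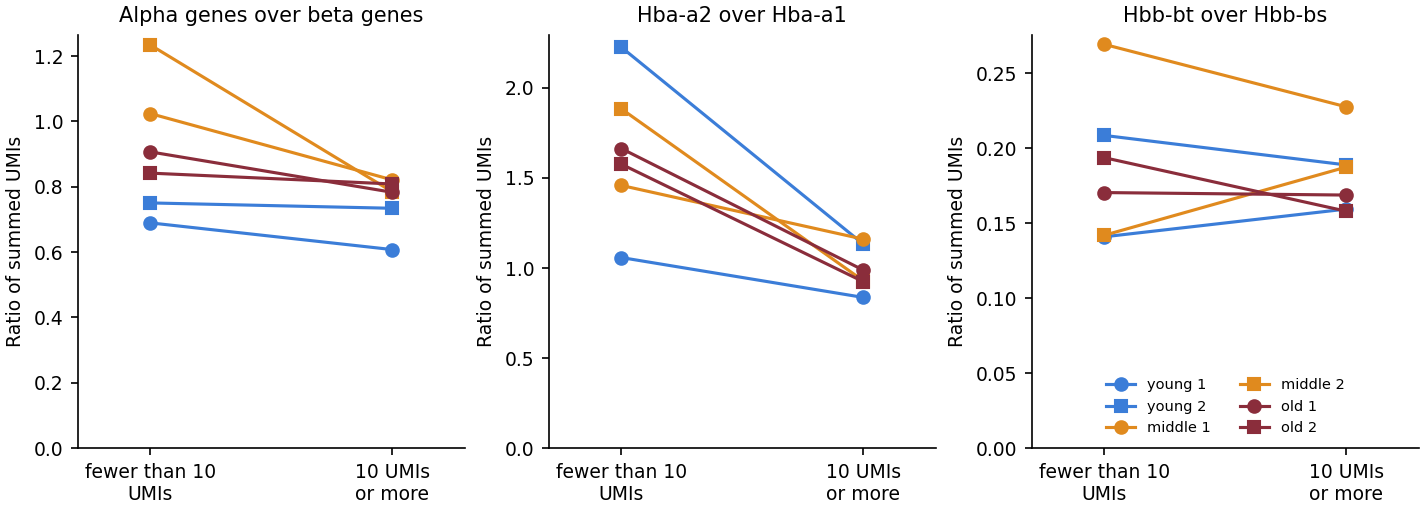
Ratios of summed UMIs in spots with fewer than 10 and with 10 or more haemoglobin UMIs, 1 line per section, for alpha over beta genes, Hba-a2 over Hba-a1 and Hbb-bt over Hbb-bs. All 6 lines fall from left to right in the first and second panels, and the lines of the third cross.

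In spots with exactly 1 haemoglobin UMI, that UMI was Hbb-bs in 35.7% to 51.0% of cases and Hba-a2 in 25.3% to 42.3%. Hba-a1 gave 15.3% to 17.6% of these UMIs. Over whole sections alpha to beta ratios were 0.625 and 0.739 in young, 0.888 and 1.00 in middle and 0.814 and 0.820 in old, without overlap between ages. The exact permutation p was 0.0667, the smallest possible (adjusted 0.167). Across the spots of a section the log-scaled levels of any 2 members correlated with Pearson's r from 0.621 (Hba-a1 with Hbb-bt, old 2) to 0.858 (Hba-a1 with Hbb-bs, young 1). These values describe spots that share a library, and most spots are at 0 for both genes.

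Regions were clusters of spots with like transcripts, made without haemoglobin, embryonic and minor globin and red cell genes and named from marker genes. The meninges, the membranes that carry the surface vessels of the brain, had the highest level of the 8 regions in all 6 sections, with 176 and 312 CPM in young, 404 and 88.8 in middle and 478 and 416 in old. With 6.26% of spots they held 36.9% of all haemoglobin UMIs and 102 of the 236 haemoglobin-rich spots. Their level exceeded that of all other spots of the same section 12.6-fold (log2 3.65 ± 1.18, SD, n = 6, higher in 6 of 6 sections, exact sign-flip permutation p = 0.0312, adjusted over 8 regions 0.0833). With the haemoglobin-rich spots left out the excess was 7.82-fold, again in 6 of 6 sections with the same p-values. Thinned to 5000 UMIs, 23.9% to 43.8% of meningeal spots had a haemoglobin UMI, against 0.707% to 4.74% in the striatum. No region is known to lack blood, so the part of free RNA in the low shares was not tested.

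The striatum had the lowest median over sections, 4.76 CPM. It was measured at 4.05 and 5.47 CPM in young, 3.07 and 1.70 in middle and 7.04 and 11.2 in old. None of its 1021 spots was haemoglobin-rich, which allows a share of up to 0.294%. This bound covers counting error only, as the spots come from 6 sections. The striatum lay below the other spots in 6 of 6 sections (log2 -3.003 ± 0.66, SD, n = 6, exact permutation p = 0.0312, adjusted 0.0833). The hypothalamus lay below in 6 of 6 sections as well (log2 -2.08 ± 1.09, SD, n = 6, exact permutation p = 0.0312, adjusted 0.0833), though with haemoglobin-rich spots left out it was below in 5 of 6 (exact permutation p = 0.156, adjusted 0.208). The hippocampal formation was below the other spots in 5 of 6 sections (log2 -1.83 ± 1.36, SD, n = 6, exact permutation p = 0.062, adjusted 0.125), and in 6 of 6 with haemoglobin-rich spots left out (log2 -0.75 ± 0.54, SD, n = 6, exact permutation p = 0.0312, adjusted 0.0833). Thalamus, white matter and choroid plexus varied between sections more than they differed from the rest. The sections did not hold the same tissue. In spots that were not haemoglobin-rich the hypothalamic gene Pmch was at 0.67 CPM in young 1 and old 1, and at 187 to 922 elsewhere. Spots of the hippocampal formation ran from 63 in young 1 to 292 in old 1. The part of the level of the cut in the region values was not tested. The thalamus ran from 3.33 CPM in middle 1 to 73.8 in young 1, and white matter from 8.18 in old 1 to 71.4 in old 2. The choroid plexus and ventricle, a vascular tissue, ran from 10.6 CPM in young 1 to 42.5 in old 1 and was above the other spots in 1 of 6 sections. Its median over sections, 20.4 CPM, was below only those of the meninges (358) and isocortex (31.0) among the 8 regions. The other spots that each region was set against include the meninges, so a region can lie below them without being low among the remaining regions. Spots of unnamed clusters reached 169 CPM in old 1, where 1 of them was the highest spot of that section, and 1.81 to 11.5 elsewhere.

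**Figure D4:**
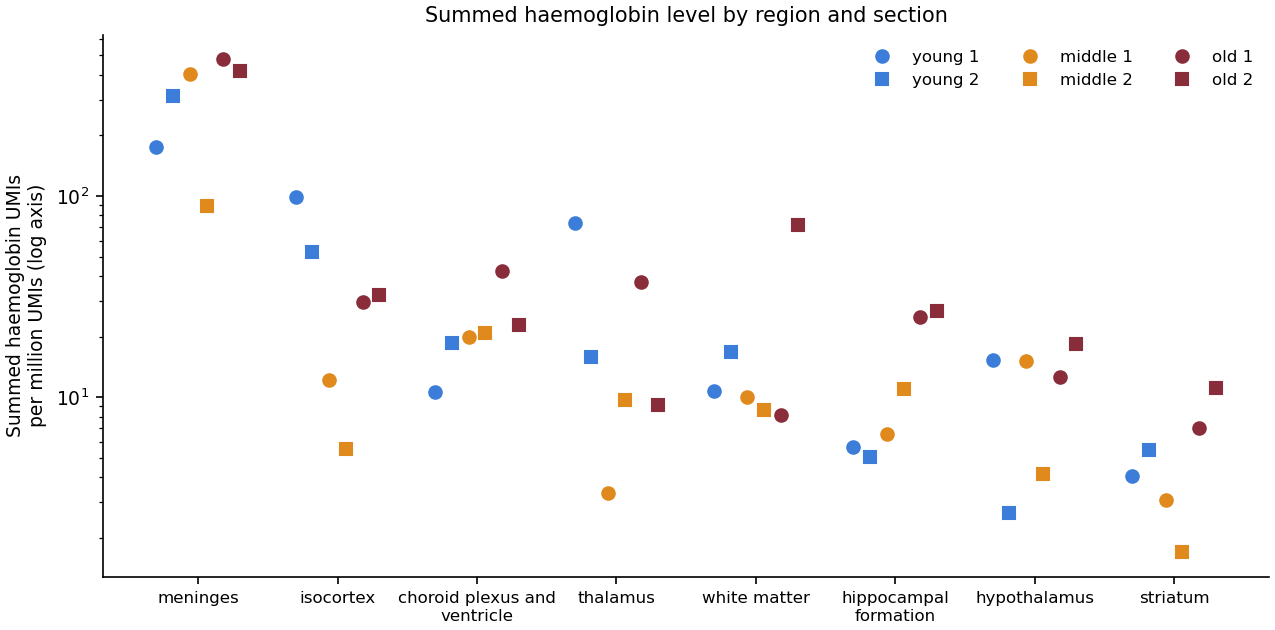
Summed haemoglobin CPM (log axis) in 8 regions, 1 point per section, coloured by age with circles for replicate 1 and squares for replicate 2. Meninges lie highest in all 6 sections, the striatum has the lowest median, and the isocortex shows the young sections above the old and the old above the middle.

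The isocortex held 26.1% of spots, 36.8% of haemoglobin UMIs and 88 haemoglobin-rich spots, and it showed the widest separation of ages. Its summed level was 98.7 and 52.8 CPM in young, 12.1 and 5.49 in middle and 29.8 and 32.2 in old, with no overlap between any pair of ages. Haemoglobin-rich spots made up 4.36% and 2.54% of isocortical spots in young, 0.926% and 0.280% in middle and 2.24% and 1.62% in old. Without them the order stayed the same, at 18.8 and 15.5 CPM, 6.18 and 3.12, and 11.7 and 11.8. Hbb-bt was at 7.52 and 4.68 CPM in young, 0.840 and 0.346 in middle (26 and 9 UMIs) and 1.81 and 1.82 in old.

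Between middle and young, Hbb-bt fell in the isocortex by 3.33 on the log2 scale (SE 0.37, edgeR adjusted p 0.0124). The other members had log2 fold changes of -3.63 for Hba-a1, -2.20 for Hba-a2 and -3.33 for Hbb-bs, and did not pass (adjusted p 0.201 to 0.358). So 1 of 4 members was called, against 34 of 15511 genes in this contrast (0.219%). No other member was called by edgeR in any of the 8 regions and 3 contrasts. The share of genes called there between old and young was 0.193% in isocortex, 0.193% in meninges, 0.0692% in choroid plexus and ventricle, 0.0349% in hypothalamus, 0.152% in striatum, 0.0992% in thalamus and 1.14% in white matter. Between middle and young it was 0.363% in meninges, 0.0519% in choroid plexus and ventricle, 0.0489% in hypothalamus, 0.0721% in striatum, 0.078% in thalamus and 0.488% in white matter. Between old and middle it was 0.00771% in meninges, 0.0457% in white matter and 0% in the other regions. The call was lost with clusters made at the finer resolution of 1.2, where the log2 fold change was -1.86 (adjusted p 0.610), with slide as a block (-3.16, adjusted p 0.080), without old 1 (adjusted p 0.0647) and without old 2 (adjusted p 0.0588). Hba-a1 and Hba-a2 were also called without young 1 (adjusted p 8.64e-04 and 0.0184, with 0.413% of all genes) or without young 2 (adjusted p 1.60e-05 and 0.00366, with 0.197%). The lone young section is then assumed to vary like the other ages. With haemoglobin-rich spots left out the log2 fold change of Hbb-bt was -2.10 (adjusted p 0.0623), and Hba-a1 was called instead (-2.25, adjusted p 0.0144, with 0.213% of all genes). DESeq2 called all 4 members in this contrast, with adjusted p from 4.06e-13 to 7.09e-04, against 26 of 21881 genes (0.119%). Between old and young, Hbb-bt was at -1.79 (SE 0.31, edgeR adjusted p 0.0908), and DESeq2 called Hbb-bt alone of the members (adjusted p 5.74e-04, with 0.165% of genes called). With edgeR, Hbb-bt passed in this contrast without middle 1 (adjusted p 0.0231, 0.241% of genes called) and without middle 2 (adjusted p 0.0202, 0.245%). Without young 2, Hbb-bt, Hba-a1 and Hba-a2 passed (adjusted p 0.00172, 0.00134 and 0.0397, 0.653%).

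In the hippocampal formation the order of ages was another. The level was 5.66 and 5.04 CPM in young, 6.53 and 11.0 in middle and 25.04 and 26.7 in old, without overlap. These values rest on 12, 47, 50, 55, 202 and 139 UMIs, and young 1 had only 63 spots of this region. Between old and young the log2 fold changes were 2.61 (SE 0.40) for Hba-a1, 1.83 (SE 0.39) for Hba-a2 and 2.91 (SE 0.54) for Hbb-bs, with adjusted p of 0.392, 0.974 and 0.974. Hbb-bt had too few UMIs to enter that fit. None of 13430 genes was called there (0%), with 507 at an unadjusted p under 0.05 and 3 called by DESeq2, none of them a member. Calls appeared when a young section was left out, which leaves 1 young section that is assumed to vary like the other ages. Without young 1 all 3 tested members were called (edgeR adjusted p 0.00104 to 0.032), with 0.312% of all genes. Without young 2 Hba-a1 (adjusted p 0.0126) and Hba-a2 (adjusted p 0.0327) were called, with 10.4% of all genes. With the haemoglobin-rich spots left out the levels were 5.66 and 5.04 CPM in young, 6.53 and 5.84 in middle and 9.74 and 12.7 in old.

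Over the 8 regions, haemoglobin was higher in old than in middle without overlap in 5 and overlapped in 3. Between middle and young it was lower without overlap in 4 regions, namely isocortex, thalamus, striatum and white matter, higher in 2, the hippocampal formation and the choroid plexus, and overlapping in 2. Without haemoglobin-rich spots, 2 of these 6 regions overlapped between middle and young. The choroid plexus was then at 10.6 and 18.5 CPM in young and 5.47 and 20.8 in middle, as 1 spot of middle 1 was left out. White matter was at 4.62 and 9.06 in young and 6.84 and 5.03 in middle. The hypothalamus, which overlapped with all spots, was then higher in middle without overlap, at 15.2 and 4.15 CPM against 3.52 and 2.65 in young. Between old and young, with all spots, summed haemoglobin was higher without overlap in 4 regions and lower in the isocortex alone.

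Other transcripts were then compared between haemoglobin-rich and other spots of the same section, with section as a block and the 4 members left out. Of 15769 genes, edgeR called 582 higher (3.69%) and 448 lower (2.84%). The 2 genes with the largest rise among those at 5 CPM or more were S100a9 (log2 fold change 4.49, SE 0.40, adjusted p 2.54e-06) and S100a8 (4.10, SE 0.47, adjusted p 1.42e-04), the calcium-binding proteins that fill neutrophils. S100a9 averaged 32.9 CPM in haemoglobin-rich and 1.26 in other spots, and was higher in 6 of 6 sections. Next came transporters and matrix genes of the meninges: Slc47a1 (3.62), Slc22a6 (3.27), Col1a1 (3.26), Fmod (3.24), Prg4 (3.23), Col1a2 (3.01), Ogn (2.91) and Aldh1a2 (2.86). Lowest were Baiap3 (-3.30) and Nts (-3.13), which mark hypothalamic neurons, with AW551984 (-3.03), the choroid plexus gene Ttr (-2.90) and Six3 (-2.59). The calls of Ttr and Six3 were lost on leaving out single sections, with edgeR adjusted p up to 0.0922 and 0.104.

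With every spot of at least 1 haemoglobin UMI taken as rich, 1310 of 16145 genes were called higher (8.11%) and 1282 lower (7.94%). Such spots were deeper than spots with none in all sections but middle 2. Their median UMIs of all genes were 37538.5 against 27644 in young 1 and 25214.5 against 26050 in middle 2. The part of depth in these calls was not tested. The 10 largest rises then ran from Fmod (2.13), Ogn (1.96) and Myoc (1.96) through Col1a1 (1.94), Col1a2 (1.81), Slc13a4 (1.78), Aldh1a2 (1.73), Islr (1.71) and Kcnj13 (1.65) to Mgp (1.63). Kcnj13 is a gene of the choroid plexus list, and the others are meningeal or transporter genes. The 5 largest falls were in Pmch (-1.75), the melanin-concentrating hormone gene of the hypothalamus, Ecel1 (-1.18), Rab37 (-1.08), Dlk1 (-1.06) and Klk6 (-1.06). Against spots of the same regions 2.54% of genes were called higher and 0.852% lower, and Fmod (adjusted p 0.191), Myoc (0.147), Aldh1a2 (0.198), Pmch (0.802), Rab37 (0.473) and Klk6 (0.218) were not called. The calls of Myoc, Kcnj13, Pmch, Ecel1, Rab37 and Dlk1 were lost when single sections were left out (edgeR adjusted p up to 0.0600, 0.0762, 0.127, 0.0545, 0.0998 and 0.0571).

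Because haemoglobin-rich spots were concentrated in 2 regions, the comparison was repeated with other spots drawn from the same regions. Then 139 of 11051 genes were called higher (1.26%) and 58 lower (0.525%). S100a9 and S100a8 stayed high, at 3.28 (adjusted p 5.61e-07) and 3.15 (adjusted p 1.01e-09), while Col1a1 was at 1.44, Col1a2 at 1.29, Slc22a6 at 0.94 and Slc47a1 at 0.92, all called. Prg4 (0.77, adjusted p 0.134) and Ttr (-0.82, adjusted p 0.913) were not called. Whether S100a9 and S100a8 passed the filter on low counts here only through the haemoglobin-rich spots was not checked. Their values in this comparison are therefore a description.

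Of the red cell genes, Alas2, the erythroid enzyme that starts haem synthesis, had 50 UMIs in all, 28 of them in haemoglobin-rich spots, which hold 1.40% of all UMIs. Its level there was 3.71 and 5.61 CPM in young, 3.94 and 3.92 in middle and 5.42 and 5.26 in old, against at most 0.116 in the other spots of any section. Alas2 passed the filter on low counts only through the haemoglobin-rich spots, so its fitted log2 difference of 6.30 is a description. Slc4a1, the anion exchanger of the red cell membrane, had 11 of 27 UMIs in these spots and was too sparse for the fit. Of the 7 other red cell genes in the fit, 2 rose (Ube2l6 at 1.13 and Isg20 at 2.18). Ube2l6, a ubiquitin-like conjugating enzyme, and Isg20, an exonuclease, are also interferon-induced in other cells. Bpgm and Mkrn1, which brain cells also express, were at -0.01 and 0.00 and did not pass. Of the 9 haem synthesis genes, none but Alas2 was called.

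Embryonic globins were not detected at this depth for 3 genes: Hba-x, Hbb-bh1 and Hbb-bh2 had 0 UMIs in all 6 sections, a count that allows up to 3 UMIs for each in these libraries. Hbb-y had 41 UMIs, none in haemoglobin-rich spots, and Hbq1a had 164, of which 2 were there. The globins of other tissues did not follow haemoglobin. Ngb, neuroglobin, fell in haemoglobin-rich spots (-1.66, SE 0.25, adjusted p 1.16e-06), as did Cygb, cytoglobin (-0.40, SE 0.11, adjusted p 0.0181). Against spots of the same regions neither passed (-0.57, adjusted p 0.520, and -0.14, adjusted p 0.738). Ngb and Cygb were not among the genes left out of the clustering that made these regions.

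Blood, vessel and brain cell lists moved to different degrees in haemoglobin-rich spots. Of the neutrophil genes, S100a8 and S100a9 rose, while Mmp9 (0.56) and Csf3r (0.32) did not pass. Lcn2 (30 of 235 UMIs in haemoglobin-rich spots), Camp (30 of 116) and Ngp (34 of 95) fell below the minimum level of 0.322 CPM in the other spots of some sections and entered the fit through the haemoglobin-rich spots. Of 15 endothelial genes, 12 rose with a median of 0.66, led by Cdh5 (1.44), the cadherin of endothelial junctions, and Abcb1a (1.08), the drug efflux pump of the blood-brain barrier. The venous and activated endothelial list had 5 of 6 genes higher, counting Lcn2, among them Vwf (1.98), the carrier of clotting factor, and Icam1 (1.62), a leukocyte adhesion molecule. Of 8 smooth muscle genes, 4 rose (Tagln 2.09, Cnn1 2.10, Des 1.95 and Mustn1 1.62), and of 8 pericyte genes 5 rose, with Vtn at 1.17. The fibroblast and meninges list had 12 of 14 higher with a median of 2.57, and 4 of 6 border macrophage genes rose, including Cbr2 (2.81) and Mrc1 (1.97). Of 6 platelet genes, Pf4, which border macrophages also express, was higher (2.00) and F5 lower (-1.71). Of 4 lymphocyte genes, Ighm (0.80) and Cd79a (2.07) were higher, Cd79a having entered in the same way as Lcn2.

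None of 7 microglia and none of 8 myelin genes was called. Of 8 astrocyte genes 3 were called higher, the largest being the gap junction gene Gja1 (0.42). Of 8 neuron genes 2 were called higher and 2 lower, and 6 of 9 choroid plexus genes were lower. With every spot of at least 1 haemoglobin UMI taken as rich, the choroid plexus list had 2 genes higher and 0 lower and F5 was higher (1.54), so these directions turned with the threshold, and all 8 myelin genes were lower. Against spots of the same regions 7 myelin genes were lower at that threshold, with 0.852% of all genes called lower. At 10 UMIs the same comparison went the other way, with 2 of 8 myelin genes called higher, 0 lower and a median of 0.35. There 1.26% of all genes were called higher. White matter had the shallowest spots of the 8 regions, with section medians of 9683.5 to 14229.5 UMIs, and the part of depth in the myelin values was not tested. Of 15 genes of haem breakdown, scavenging and iron handling, 2 rose, Cp (ceruloplasmin, 1.06) and Ftl1 (ferritin light chain, 0.19). Hmox1, the haem-degrading enzyme, was at 0.46 (adjusted p 0.567) and the haptoglobin receptor Cd163 at 1.94 (adjusted p 0.0583).

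Against spots of the same regions, 6 of 15 endothelial genes (median 0.38), 9 of 12 fibroblast and meninges genes (median 1.008), 2 of 5 smooth muscle genes and 1 of 7 pericyte genes were called higher. Only 2 of the 12 neutrophil genes, S100a8 and S100a9, could be tested there, and both were higher. Whether they entered only through the haemoglobin-rich spots was not checked. None of 5 red cell genes was called higher, and Alas2 was too sparse to test.

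**Figure D5:**
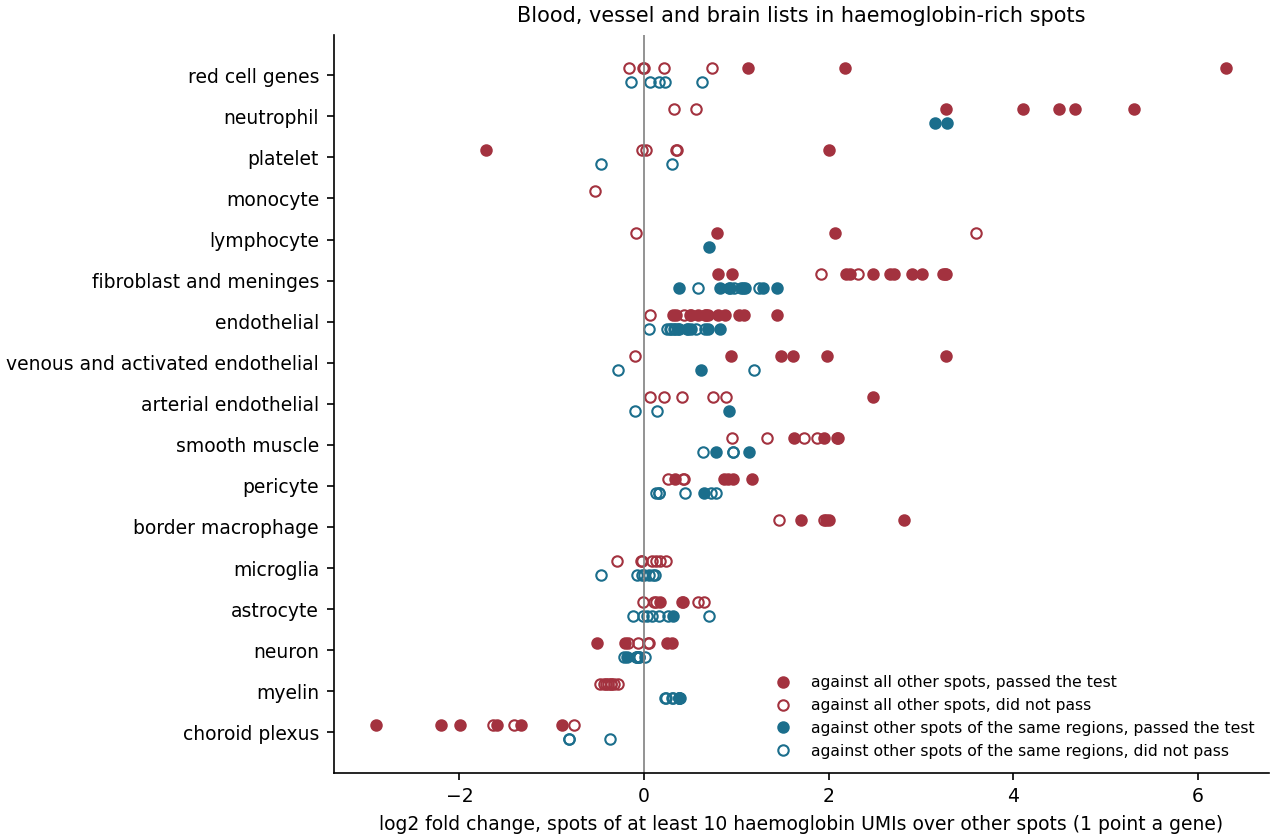
log2 fold changes of single genes (points) between spots of at least 10 haemoglobin UMIs and other spots, by gene list, against all other spots (red) and against other spots of the same regions (blue); filled points passed an adjusted p under 0.05. Alas2, Ngp, Camp, S100a9 and S100a8 lie farthest to the right, and meningeal genes move towards 0 when regions are matched.

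The genes whose level across spots was most like that of summed haemoglobin were meningeal. By the mean over 6 sections of Pearson's r across spots, among 12472 genes with a UMI in at least 5% of the spots of every section, they were Col1a2 (0.339), Fmod (0.323), Mgp (0.312), Myoc (0.305), Col1a1 (0.294), Slc6a13 (0.288), Gjb2 (0.285), Islr (0.285), Ogn (0.279) and Igf2 (0.276). Of these 10, 7 are members of the fibroblast and meninges list, and the median over all 12472 genes was -0.0039. With haemoglobin-rich spots left out Col1a2 still led, at 0.309. These are descriptions over spots that share a library, and the sparse blood genes could not enter the ranking.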

How the data were processed

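The values deposited by the authors are unnormalized UMI counts of each gene in each spot. Space Ranger 1.3.1 produced them, per the file headers, and the build was mm10, per the submitters' processing notes. The members, gene lists and comparisons were chosen with earlier results of these data known. Spots under 500 UMIs were left out (2 of 16743). Counts were scaled to 10000 UMIs for clustering (scanpy 1.11.5, Leiden resolution 0.8), without haemoglobin, embryonic and minor globin, red cell and mitochondrial genes. A cluster took a region's name with at least 3 of its markers among the 50 leading genes, 1 or more among the 10 leading genes, and at least 2 times the markers of any other region; 1533 spots stayed unnamed and count among all other spots only. Spot positions and images were not used here.

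For each section, and for each region within it, counts were added over spots and fitted with edgeR 4.0.16 (robust quasi-likelihood test, TMM factors, filterByExpr, 6 sections, age as the only term), with Benjamini-Hochberg adjustment over all genes and calls at an adjusted p under 0.05, two-sided. DESeq2 1.42.0 was an alternative. The scripts were tested on simulated data. Single values per section were compared with exact permutation tests, two-sided for sign flips. Sections of an age came from separate animals, and the ratio of chi-square to its degrees of freedom between them was 24.0 to 45.6, far above counting noise.

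Spots rich in haemoglobin were first defined as those above 5 times the section's median share. As that median is 0, the rule takes every spot with at least 1 haemoglobin UMI, and the rest then hold none, so the threshold of 10 UMIs was chosen after the data were seen. Named genes are the 4 members; the 10 higher and 5 lower called genes with the largest change, a mean of at least 5 CPM and the same direction in all 6 sections; the 10 genes most like summed haemoglobin; up to 3 members per list with the largest change and at least 1 CPM; and red cell and minor globin genes, of which some are not reported here. Other genes named within lists were chosen after their values were seen. CPM in the text are UMIs per 1000000 UMIs of the spots summed, with TMM scaling where haemoglobin-rich spots are compared. Alternatives were the test, scaling, filter, blocks, clustering, thresholds and each section left out.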

Additional observations from a re-analysis of the deposited data

Results flagged for a closer look

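A case is here a pair of regions in 1 contrast with young. In 12 cases all sections of the older age moved 1 way in the first region and the opposite way in the second, without overlap. The isocortex paired with the hippocampal formation, and with the choroid plexus and ventricle, counted under both contrasts, so the distinct pairs are fewer than 12. How many cases chance would give among all pairs and contrasts was not worked out. The values are differences between the regions in the change of the mean log2 level of summed haemoglobin. Between old and young the isocortex was lower while 4 regions were higher. The difference from the isocortex was 3.50 for the hippocampal formation, 2.37 for the choroid plexus and ventricle, 2.15 for the meninges and 2.13 for the striatum. Between middle and young the hippocampal formation was higher and differed by 3.81 from the isocortex, 3.26 from the thalamus, 1.71 from the striatum and 1.19 from white matter. In the same contrast the choroid plexus and ventricle was higher and differed by 3.68 from the isocortex, 3.12 from the thalamus, 1.58 from the striatum and 1.06 from white matter. Without haemoglobin-rich spots, of which 1 lay in the choroid plexus of middle 1, the choroid plexus overlapped between middle and young (10.6 and 18.5 CPM against 5.47 and 20.8), as did white matter. These cases share the young sections and regions, so they are not independent. An exact permutation of the 3 ages on the log2 ratio of the paired regions gave p from 0.0667 to 0.867, and 0.0667 is the smallest that 2 sections per age allow; the differences of single contrasts were not tested.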

How the results depend on the processing

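The replicate numbers were checked for pairing. Deviations of same-numbered sections correlated at -0.00084 (young and middle), 0.18 (young and old) and 0.34 (middle and old), all from 2 sections per age. For middle and old the number is also that of the slide, and the young sections share a slide, so only these 2 ages are paired by slide. With the replicate block the fit called 10 genes in spots under 10 UMIs between middle and young, and 0 members in whole sections at any contrast, old against middle included. In the isocortex it kept the call of Hbb-bt between middle and young (adjusted p 1.90e-04) and added Hba-a2 (adjusted p 0.0144, 0.226% of genes called), and it called Hbb-bt between old and young (adjusted p 0.0053, 0.187%).

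In whole sections none of the 4 members was called under any of the 12 alternatives. The 29 genes called between old and young became 179 with DESeq2, 113 with no filter on low counts and 7 with slide as a block, and 6 to 75 with a section left out. The 12 between middle and young became 70, 58 and 3, and 20 with equal numbers of spots of each region, and 1 to 33 with a section left out. The 0 between old and middle became 0 to 1. Without young 2 the first count was 75, without old 2 it was 6, and without either middle section 7. Without young 1 the second was 33, without young 2 19, without middle 1 1 and without middle 2 2. In spots under 10 UMIs the 26 between old and young became 162 with DESeq2 and 7 with slide as a block (6 to 77 with a section left out). The 6 between middle and young became 71, 3 and, with spots under 20 UMIs, 11 (1 to 30). The 0 between old and middle became 1 with DESeq2 (0 to 1). DESeq2 called 1 member in each of the last 2 contrasts. The cause of these moves was not tested.

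Middle against young kept its sign for all members in whole sections. Old against young had no stable sign. With a section left out, the log2 fold change ranged from -0.22 to 0.59 for Hba-a1, from -0.086 to 0.47 for Hba-a2, from -0.45 to 0.32 for Hbb-bs and from -0.41 to 0.13 for Hbb-bt. Hba-a1 turned negative without young 2 and without old 1, Hba-a2 without old 1, and both beta genes turned positive without young 1 and without old 2. With equal regions Hba-a1 (-0.31) and Hba-a2 (-0.0688) reversed, and with slide as a block Hbb-bs (0.34) and Hbb-bt (0.43). In spots under 10 UMIs Hba-a1 ranged from -0.00278 to 0.81 and Hbb-bs from -0.0489 to 0.32 between old and young, both reversing without young 2, and Hba-a1 from -0.98 to 0.00168 between middle and young, reversing without young 1. In the hippocampal formation Hba-a2 reversed between middle and young (-0.11) with haemoglobin-rich spots left out.

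Among regions, the single member called became 0 at resolution 1.2, and the choroid plexus reversed (0.33) with haemoglobin-rich spots left out. The ratio of Hbb-bt to Hbb-bs reversed at thresholds of 5 (0.0461) and 20 UMIs (0.0418), and ranged from -0.10 to 0.0358 with a section left out. With every spot of at least 1 haemoglobin UMI as rich, 2592 other genes were called, against 1349 at 5, 1030 at 10 and 780 at 20 UMIs. Drawing the other spots from the same regions gave 505 for the first and 197 for the third. With a section left out they ranged from 1608 to 2731 and from 776 to 1119. Without young 2 the first was 1608, and without old 2 it was 1665. Thresholds of 3, 5 and 10 times the median coincide, as the median is 0, and could not be told apart; the fit of spots that are not rich by that rule could not be run, since they hold no haemoglobin UMI. A region of a section held as few as 10 haemoglobin UMIs.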
